A study of Mus musculus with 6 samples.

Results

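The glutathione S-transferase (Gst), UDP-glucuronosyltransferase (Ugt) and sulfotransferase (Sult) genes were examined in adult mouse kidney after deletion of the transcription factor genes Pax2 and Pax8. Members were taken by symbol alone, as every gene of the cytosolic and mitochondrial Gst classes a, k, m, o, p, s, t and z, of the microsomal Mgst genes, of the Ugt1, Ugt2 and Ugt3 genes and of the numbered Sult genes that had a transcript cluster with 1 gene symbol. This gave 52 of the 22180 genes measured, with 18 Gst, 3 Mgst, 10 Ugt and 21 Sult genes. A further 14 matching symbols, among them 8 Ugt1a genes, Gsta1, Gsta2, Ugt2a1 and Ugt2a2, lay only on clusters that carry several symbols and were not assigned a value.

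These enzymes carry out the conjugation step of detoxification. Gst and Mgst enzymes attach glutathione to reactive compounds, Ugt enzymes attach a sugar, most often glucuronic acid from UDP-glucuronate, and Sult enzymes attach a sulfonate group from the donor PAPS (3'-phosphoadenosine-5'-phosphosulfate). In the kidney the proximal tubule is the main site of these reactions, the conjugates leave in the urine or as mercapturic acids, and in rodents several of the enzymes are known to differ between the sexes.

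The 3 arrays labelled Pax28 dKO held RNA from mice homozygous for floxed Pax2 and Pax8 alleles that also carried Rosa26CreER, a tamoxifen-inducible Cre recombinase expressed in nearly all cell types, so that deletion was not limited to one kidney cell type. The 3 Control arrays held RNA from Cre-negative mice, whose floxed alleles the labels do not spell out. Mice of both groups were given tamoxifen intraperitoneally at 50 mg/kg on 3 consecutive days when 8 weeks old, with a second such round when 10 weeks old, and kidney tissue was taken 14 days after the last dose. Replicates 3 and 5 of the Pax28 dKO group and replicates 2 and 6 of the Control group were female, and Pax28 dKO replicate 1 and Control replicate 4 were male. The controls carry no Cre, so effects of Cre itself and of the deletion cannot be told apart. The labels do not say that each array came from a separate mouse, and the p-values measure only the spread between these arrays.

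All levels are the deposited log2 signals, on which a difference of 1 is a doubling. Differences were fitted with limma in a model with sex and genotype, and a gene passed when its p adjusted over all 22180 genes by the Benjamini-Hochberg method was below 0.05. Array medians lay between 4.56 and 4.70. Kidney markers were present on all arrays, some at lower levels in the Pax28 dKO group, as given at the end. The summed level of thick ascending limb markers, none of which passed, was 12.87 to 13.15 on the Pax28 dKO arrays and 13.05 to 13.18 on the Control arrays. Pax8 was at 10.11, 10.59 and 10.39 on the Pax28 dKO arrays, against 8.89 to 9.09 on the 3 Control arrays, a higher signal in the knockout (log2 fold change 1.36 ± 0.12 SE, limma adjusted p = 0.00369). Pax2 averaged 6.25 ± 0.21 on the Pax28 dKO arrays and 5.98 ± 0.18 on the Control arrays (SD, n = 3 each), and its difference of 0.27 ± 0.10 SE did not pass (limma adjusted p = 0.189). Neither signal was lower in the group labelled knockout. The files do not say which exons the floxed alleles lose or which exons the probes read, so these signals do not check the deletion, and genotype below means the label.

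Of the 52 members, 5 were higher and 3 were lower in Pax28 dKO kidneys and 44 did not pass. The higher genes were Gsta3, Gsta4, Gstt1, Mgst1 and Sult1a1, and the lower ones Gstt2, Ugt3a1 and Ugt3a2. Among all genes 4.12% passed as higher and 3.08% as lower, 7.2% in all, and the median log2 fold change was -0.01 both for the members and for all genes. At an unadjusted p below 0.05 there were 13 higher and 7 lower members of 52, where 11.6% of all genes were higher and 10.5% lower at that level. All 8 that passed were among the 27 members with a mean level at or above 3.77, the 40th percentile of all genes. None was among the 25 dimmer ones, 16 of which were Sult genes. The share of all genes that passed above and below this level was not counted, so the split cannot be called particular to the members. The ranges of the Pax28 dKO and Control arrays did not overlap for 4 higher and 4 lower members, 8 of 52, while this held for 22.5% of all genes. Within each sex, 10 members were above and 8 below the matching controls on every Pax28 dKO array, 18 of 52, near the 36.2% found over all genes.

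**Figure D1:**
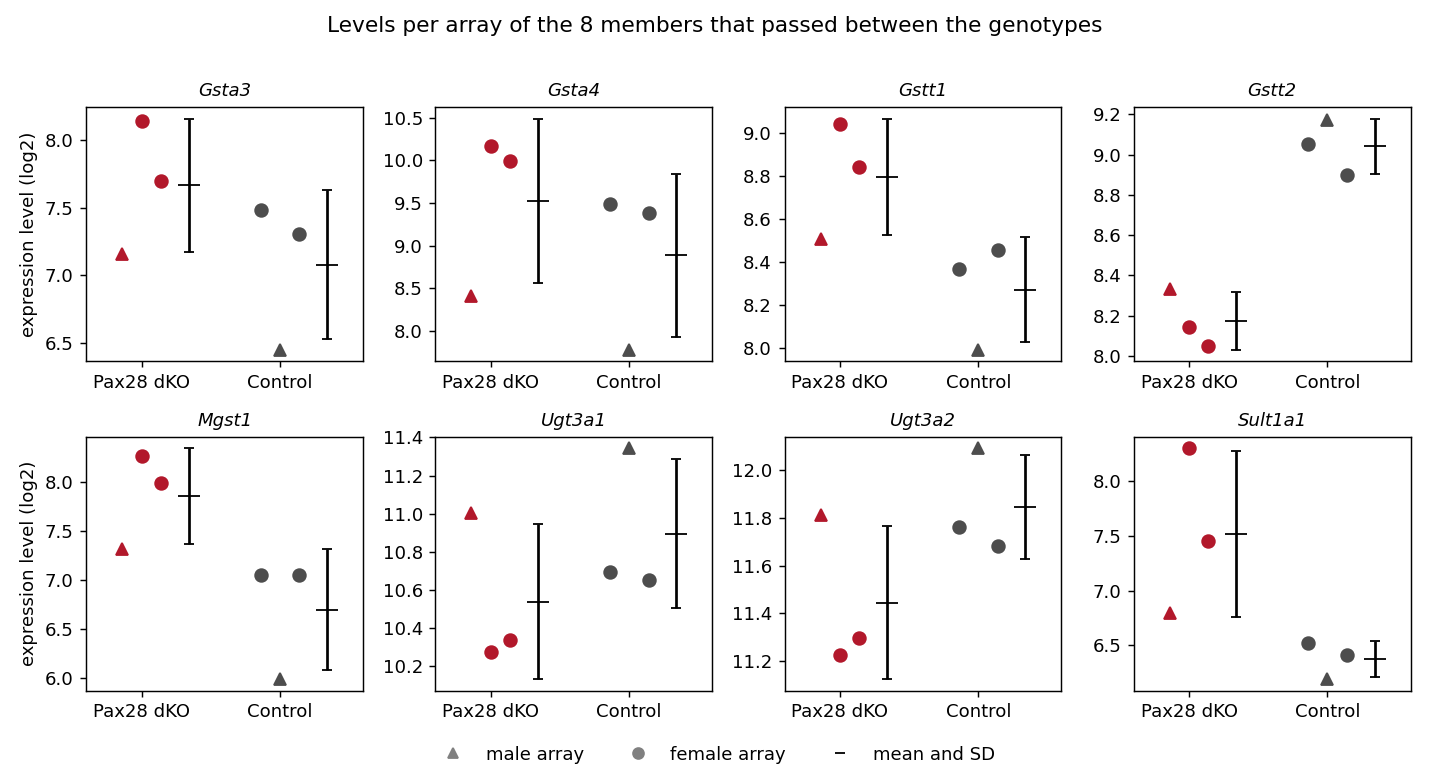
Log2 signal of the 8 members that passed, on each array, with the Pax28 dKO arrays left of the Control arrays and males and females marked. Mgst1, Gstt1 and Sult1a1 lie higher on all 3 Pax28 dKO arrays and Gstt2 lies lower on all 3, while the groups overlap for the other 4 genes.

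Among the alpha-class transferases, both genes with a cluster of their own were higher in Pax28 dKO kidneys. The clusters shared by Gsta1, Gsta2 and other symbols had log2 fold changes of 0.24, 0.24 and -0.37. None of these passed when every row was tested (limma adjusted p = 0.621, 0.351 and 0.378). Gsta4, which conjugates 4-hydroxynonenal and other products of lipid peroxidation, was at 8.42, 10.17 and 9.99 on Pax28 dKO replicates 1, 3 and 5, against 7.78 on the male Control array and 9.48 and 9.39 on the female ones. The groups overlapped because both male arrays were low, but within each sex every Pax28 dKO array was above its controls. The log2 fold change was 0.64 ± 0.09 SE (limma adjusted p = 0.0116), and it was 0.63 between the males and 0.64 between the females. Gsta3, whose mouse enzyme conjugates the epoxide of aflatoxin B1, was at 7.15, 8.14 and 7.70 on Pax28 dKO replicates 1, 3 and 5, against 6.45 on the male Control array and 7.48 and 7.30 on the female ones. Its log2 fold change of 0.59 ± 0.13 SE lay close to the threshold (limma adjusted p = 0.0486) and did not pass when any 1 of 5 of the 6 arrays was left out, with adjusted p up to 0.163. For Gsta4 the adjusted p was up to 0.0584 without 1 of the female controls, replicates 2 or 6.

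The theta-class genes, which lie side by side on chromosome 10, differed in direction. Gstt2, whose human counterpart acts on sulfate esters, was at 8.33, 8.14 and 8.05 on the Pax28 dKO arrays, against 9.17 on the male Control array and 9.05 and 8.90 on the female ones. The groups did not overlap, and the log2 fold change was -0.87 ± 0.08 SE (limma adjusted p = 0.0046), with -0.84 between the males and -0.88 between the females. It still passed when any single array was left out (adjusted p up to 0.0299). Gstt1, which conjugates small halogenated compounds, was at 8.51, 9.04 and 8.84 on the Pax28 dKO arrays, against 7.99 on the male Control array and 8.37 and 8.46 on the female ones. Its groups did not overlap either, and its log2 fold change was 0.53 ± 0.09 SE (limma adjusted p = 0.0206). That call was lost without any 1 of 5 arrays, all but Pax28 dKO replicate 5 (adjusted p up to 0.0859). Gstt3 had a difference of 0.21 ± 0.08 SE (limma adjusted p = 0.183), and Gstt4 was dim, at 2.20 ± 0.12 in Pax28 dKO and 2.25 ± 0.25 in Control kidneys (SD, n = 3 each).

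None of the 6 mu-class, 3 pi-class and 2 omega-class genes passed. Gstm2, a mu-class enzyme, was at 6.94, 7.10 and 6.81 on the Pax28 dKO arrays, against 7.18 on the male Control array and 7.71 and 7.57 on the female ones, below every control. Its difference of -0.54 ± 0.13 SE did not pass (limma adjusted p = 0.0577). Gstm7 had a difference of 0.44 ± 0.16 SE and Gstp3 one of 0.48 ± 0.16 SE (limma adjusted p = 0.163 and 0.131). The abundant Gstk1, a transferase of mitochondria and peroxisomes, averaged 9.65 ± 0.38 in Pax28 dKO and 9.59 ± 0.37 in Control kidneys (SD, n = 3 each), and the pi-class Gstp1 lay between 8.99 and 9.01 in Pax28 dKO and between 8.96 and 9.37 in Control kidneys. Over the 14 Gst genes that did not pass, the log2 fold changes ran from -0.54 to 0.48.

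Of the 3 membrane-bound transferases, Mgst1 was higher in Pax28 dKO kidneys. Mgst1, found in the endoplasmic reticulum and the outer mitochondrial membrane, where it also reduces lipid peroxides, was at 7.32, 8.26 and 7.99 on Pax28 dKO replicates 1, 3 and 5, against 5.99 on the male Control array and 7.06 and 7.05 on the female ones. Every Pax28 dKO array was above every Control array, and the difference was 2.23-fold (log2 fold change 1.16 ± 0.10 SE, limma adjusted p = 0.00402). It was 1.33 between the males and 1.07 between the females, and it passed whichever single array was left out (adjusted p up to 0.0304), but not in a model without sex (adjusted p = 0.144). Mgst3 differed by 0.07 ± 0.12 SE and Mgst2, which was dim, by -0.11 ± 0.13 SE, and neither passed (limma adjusted p = 0.797 and 0.699).

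The promoter window of Mgst1 is shown because it holds a match to the core of the antioxidant response element, the site through which the transcription factor Nrf2 acts on many conjugation genes. The window runs from 250 bases before to 50 bases after the RefSeq start of 1 of its transcripts (GRCm38.p6, chr6:138140277-138140576, + strand), and capitals mark the match to TGACNNNGC, searched on both strands, here on the - strand. Of all 32851 RefSeq promoter windows of this length 12.4% held that motif, and 3 of the 56 windows found for 45 of the 52 members did, which is 5.36%. The other windows with a match were of Gsta3 and Gstm7, and a second window of Mgst1 (chr6:138141337-138141636) held none. Gsta4, Gstt2 and Ugt3a2, which passed, had no window.
Mgst1: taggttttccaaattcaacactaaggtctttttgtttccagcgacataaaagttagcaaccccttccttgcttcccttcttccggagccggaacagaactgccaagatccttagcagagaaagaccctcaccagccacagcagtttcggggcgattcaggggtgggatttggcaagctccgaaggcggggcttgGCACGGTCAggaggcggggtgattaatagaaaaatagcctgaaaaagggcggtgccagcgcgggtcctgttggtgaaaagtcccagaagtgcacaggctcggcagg
The match is a description of these letters and not of a bound site. The letters GTTAAT, the core of the site of the renal and hepatic factor HNF1, were also searched on both strands. They were in 7.10% of all windows and in 10 of the 56 member windows (17.9%). Those were of Gsta3, Sult1a1 and Ugt3a1, which passed, and of Sult1d1, Sult3a2, Ugt2a3, Sult2a3, Sult2a4, Sult2a5 and Sult2a6, which did not. Some members had more than 1 window and the Sult2a genes are of 1 family, so the windows are not independent and the shares were not compared by a test.

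Both Ugt3 genes were lower in Pax28 dKO kidneys, and no Ugt2 gene passed in the fit over both sexes. Ugt3a2 and Ugt3a1, neighbouring genes on chromosome 15, had the highest mean signals of all 52 members. The human UGT3A enzymes use other sugars than glucuronic acid, UGT3A1 N-acetylglucosamine and UGT3A2 glucose or xylose. Ugt3a1 was at 11.01, 10.27 and 10.34 on Pax28 dKO replicates 1, 3 and 5, against 11.34 on the male Control array and 10.69 and 10.65 on the female ones. Ugt3a2 was at 11.81, 11.22 and 11.30 on the same Pax28 dKO arrays, against 12.09 on the male Control array and 11.76 and 11.68 on the female ones. Within each sex the Pax28 dKO arrays were lower for both genes, although the ranges of the groups overlapped. The log2 fold changes were -0.36 ± 0.07 SE for Ugt3a1 and -0.40 ± 0.08 SE for Ugt3a2 (limma adjusted p = 0.0384 and 0.0378). Both calls were lost whichever single array was left out, with adjusted p up to 0.131.

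The Ugt2b genes, which glucuronidate steroids, bile acids and many drugs, form a cluster on chromosome 5, and in several of them the difference between Pax28 dKO and Control kidneys was seen in the females. Ugt2b37 was at 6.56 and 6.53 on the female Pax28 dKO arrays, against 3.34 and 3.16 on the female Control arrays. In the males it was at 9.64 on the Pax28 dKO array, against 10.11 on the Control array. The female Pax28 dKO values thus lay between the female and the male controls, and the mean of the 3 arrays, with a difference of 2.04 ± 0.69 SE (limma adjusted p = 0.140), describes neither sex. The difference was 3.29 between the females and -0.47 between the males. The test of male minus female difference gave -3.76 ± 0.19 SE (limma interaction, adjusted p = 0.0292). This was the 1 gene of 22180, or 0.00451%, that passed for a genotype difference unlike between the sexes, and at an unadjusted p below 0.05 there were 10 members of 52, where 6.99% of all genes (1551) were. That test has 2 residual degrees of freedom and rests on 1 male per genotype, and it did not pass without Control replicate 2 or without Control replicate 6 (adjusted p = 0.182 in each case).

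Ugt2b5 was at 5.41 and 5.49 on the female Pax28 dKO arrays, against 1.69 and 2.06 on the female Control arrays, and at 2.73 on the male Pax28 dKO array, against 2.74 on the male Control array. The female Pax28 dKO arrays stood above all 4 others, while the difference between the males was -0.01. The mean of Ugt2b5 over all arrays was below the 40th percentile. Its log2 fold change over both sexes was 2.38 ± 0.66 SE (limma adjusted p = 0.0859), and its interaction of -3.59 ± 0.25 SE did not pass (limma adjusted p = 0.0531). Ugt2b35 stayed dim, at 3.26 and 3.36 on the female Pax28 dKO arrays, against 2.44 and 2.48 on the female Control arrays, and at 2.59 on the male Pax28 dKO array, against 2.69 on the male Control array. Its interaction was -0.96 (limma adjusted p = 0.442).

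Ugt2b34 was at 10.13 and 10.01 on the female Pax28 dKO arrays, against 8.78 and 9.11 on the female Control arrays, and at 8.15 on the male Pax28 dKO array, against 8.06 on the male Control array. The difference was 1.13 between the females and 0.10 between the males, and neither the difference over both sexes (0.79 ± 0.22 SE, limma adjusted p = 0.0829) nor the interaction (-1.03, limma adjusted p = 0.579) passed. Ugt2b38 was at 6.90 and 7.36 on the female Pax28 dKO arrays, against 7.08 and 7.18 on the female Control arrays, and at 9.79 on the male Pax28 dKO array, against 10.09 on the male Control array. Its genotype difference was -0.10 ± 0.14 SE (limma adjusted p = 0.752), and its signal, like that of Ugt2b37, was highest in the males. Ugt2b1, Ugt2b36 and Ugt2a3 had mean signals below the 40th percentile, with differences between -0.19 and 0.05.

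**Figure D2:**
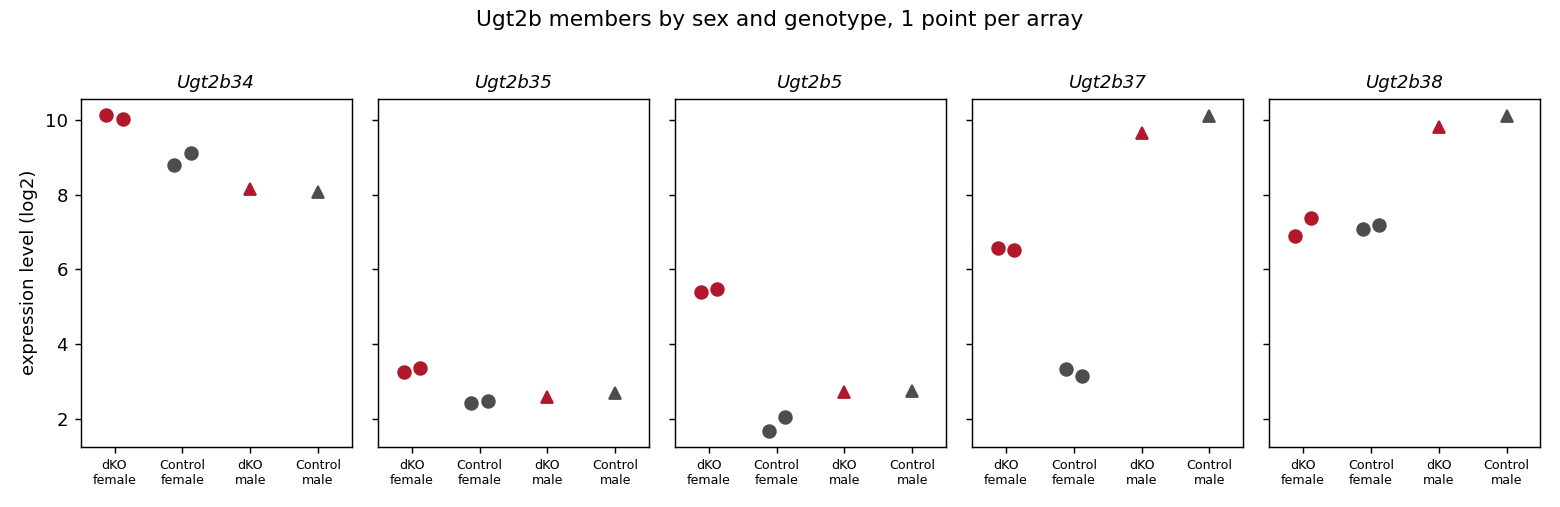
Log2 signal of 5 Ugt2b genes by sex on each array, Pax28 dKO left of Control. The female Pax28 dKO arrays lie above the female Control arrays for Ugt2b37, Ugt2b5, Ugt2b34 and Ugt2b35, and the males differ by 0.47 or less in each of these genes.

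Fitted on the 4 female arrays alone, 7 members were higher in Pax28 dKO kidneys and 3 were lower, where 3.04% of all genes passed as higher and 2.59% as lower, 5.63% in all. The higher ones were Gsta4, Mgst1, Sult1a1, Ugt2b34, Ugt2b35, Ugt2b37 and Ugt2b5. Among the Ugt2b genes the limma adjusted p over all genes was 0.000873 for Ugt2b37, 0.00154 for Ugt2b5, 0.011 for Ugt2b35 and 0.0128 for Ugt2b34. The lower ones were Gstt2, Gstm2 (-0.69, limma adjusted p = 0.0442) and the dim Sult2a3 (-0.49, limma adjusted p = 0.0459). These 4 arrays are also part of the fit over both sexes, so the counts are not independent of it.

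The promoter windows of Ugt2b37, Ugt2b5 and Ugt2b38 are shown because they are alike in sequence while the signals of these genes followed sex and genotype differently. All are on the - strand of chromosome 5 in RefSeq's GRCm38.p6 annotation, at chr5:87254739-87255038 for Ugt2b37, chr5:87140291-87140590 for Ugt2b5 and chr5:87424154-87424453 for Ugt2b38, written 5′ to 3′ in the direction of the gene. No letters are in capitals because neither motif above occurs in them.
Ugt2b37: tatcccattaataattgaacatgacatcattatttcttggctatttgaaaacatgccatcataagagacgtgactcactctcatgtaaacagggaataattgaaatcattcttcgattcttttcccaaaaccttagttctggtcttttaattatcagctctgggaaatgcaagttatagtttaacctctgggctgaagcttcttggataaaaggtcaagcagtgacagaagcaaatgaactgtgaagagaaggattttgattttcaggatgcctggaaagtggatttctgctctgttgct
Ugt2b5: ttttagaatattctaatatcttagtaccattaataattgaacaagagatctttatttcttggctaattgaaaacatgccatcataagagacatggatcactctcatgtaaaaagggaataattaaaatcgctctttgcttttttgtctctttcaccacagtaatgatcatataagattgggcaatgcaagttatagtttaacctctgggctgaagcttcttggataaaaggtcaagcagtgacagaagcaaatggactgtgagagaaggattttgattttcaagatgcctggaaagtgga
Ugt2b38: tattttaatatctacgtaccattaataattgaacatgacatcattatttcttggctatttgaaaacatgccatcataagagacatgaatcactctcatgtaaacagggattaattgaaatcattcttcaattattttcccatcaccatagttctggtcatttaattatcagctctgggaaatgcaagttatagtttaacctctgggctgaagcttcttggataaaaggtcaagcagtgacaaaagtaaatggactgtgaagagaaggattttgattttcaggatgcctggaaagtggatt
In a pairwise alignment 86.9% of columns were identical between Ugt2b37 and Ugt2b38, 84.2% between Ugt2b38 and Ugt2b5 and 76.2% between Ugt2b37 and Ugt2b5. Ugt2b36 shared 60.7% to 63.9% with these 3 windows. These windows lie mostly before the start of the transcript, so their likeness is not that of the transcripts the probes read. Related genes may share probe signal on an array. Neither probe nor transcript sequences were analysed here, so shared signal among Ugt2b37, Ugt2b5 and Ugt2b38 was not tested.

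Of the 21 sulfotransferases, 1 passed. Sult1a1, which sulfates phenols, was at 6.79, 8.30 and 7.45 on Pax28 dKO replicates 1, 3 and 5, against 6.19 on the male Control array and 6.52 and 6.41 on the female ones. Every Pax28 dKO array was above every Control array, and Sult1a1 spread more among the Pax28 dKO arrays (7.51 ± 0.76) than among the Control arrays (6.38 ± 0.17, SD, n = 3 each). The difference was 2.20-fold (log2 fold change 1.14 ± 0.25 SE, limma adjusted p = 0.0451), with 0.60 between the males and 1.41 between the females. It did not pass without Control replicate 2, Control replicate 6 or Pax28 dKO replicate 5 (adjusted p up to 0.161).

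Sult1d1 and Sult1c2, the sulfotransferases with the highest mean signals, did not pass. Sult1c2 averaged 10.43 ± 0.10 in Pax28 dKO and 10.42 ± 0.07 in Control kidneys (SD, n = 3 each), a difference of 0.01 ± 0.08 SE. Sult1d1, a catecholamine sulfotransferase of mouse kidney encoded next to the Ugt2b cluster, was at 10.82, 10.44 and 10.10 on the Pax28 dKO arrays, against 11.01 on the male Control array and 10.83 and 10.71 on the female ones. Its difference of -0.40 ± 0.12 SE did not pass (limma adjusted p = 0.109). Sult2b1, which sulfates cholesterol, had a lower mean level of 4.25, below the 6.95 of Sult1a1. It differed by 0.19 ± 0.13 SE and did not pass (limma adjusted p = 0.465).

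The 8 Sult2a genes, hydroxysteroid and bile acid sulfotransferases best known from liver, had mean levels between 1.57 and 3.66 and were all dim. The largest differences among the dim Sult genes were -0.56 ± 0.19 SE for Sult2a5 and 0.50 ± 0.15 SE for Sult4a1, a brain enzyme without a settled substrate (limma adjusted p = 0.139 and 0.107). The estrogen sulfotransferase gene Sult1e1 was at 2.30 ± 0.05 in Pax28 dKO and 2.34 ± 0.05 in Control kidneys (SD, n = 3 each). Over the 20 Sult genes that did not pass, the log2 fold changes ran from -0.56 to 0.50.

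**Figure D3:**
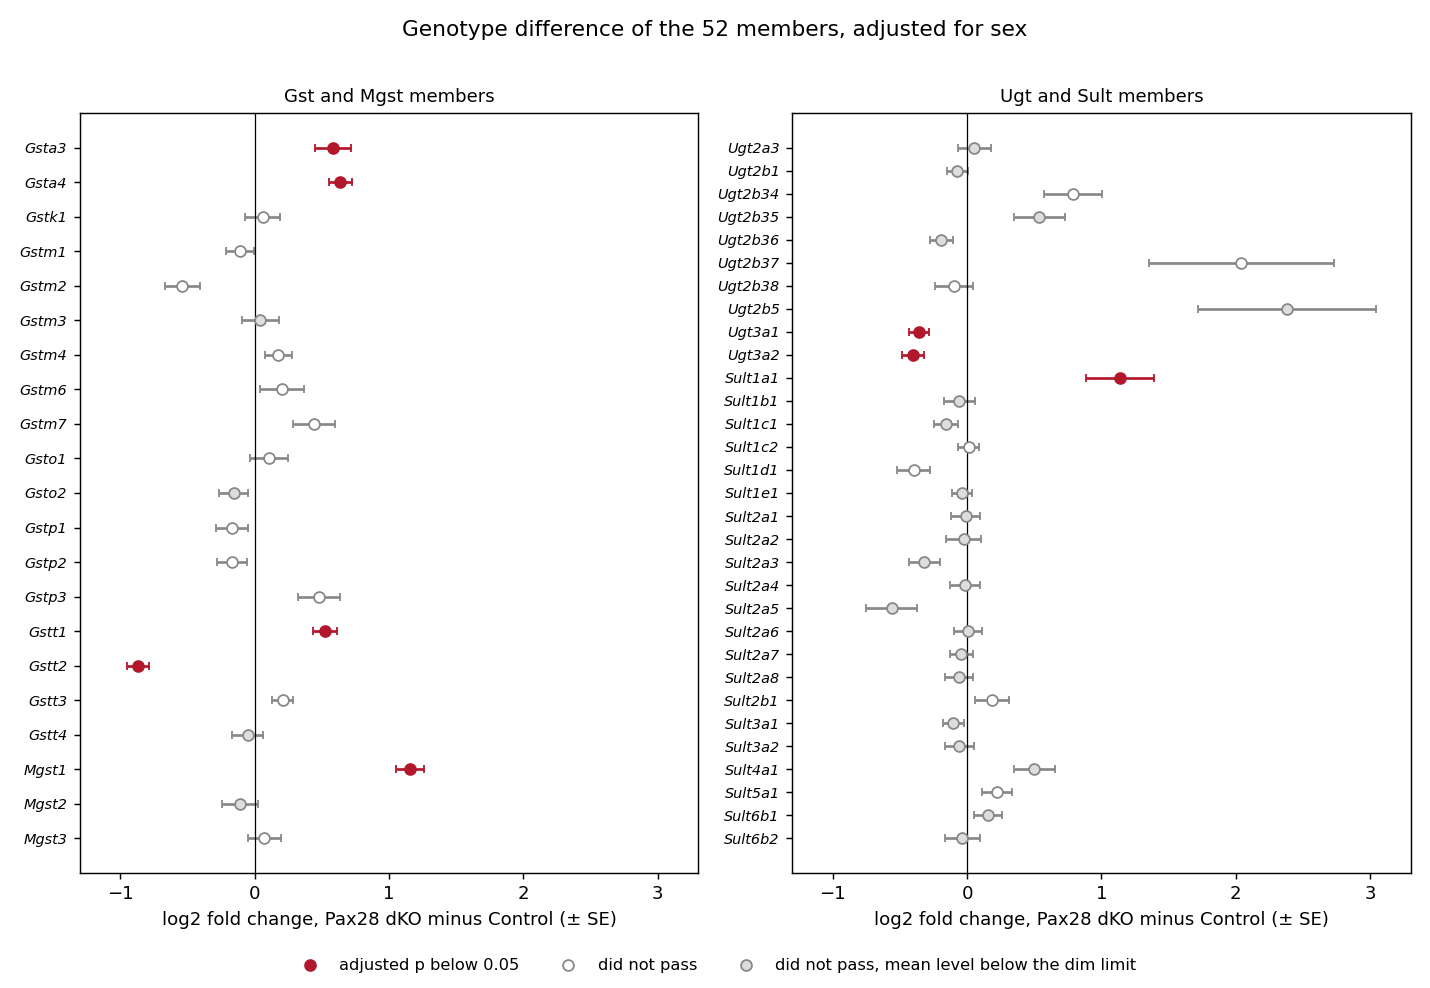
Log2 fold change, Pax28 dKO minus Control, with its standard error for all 52 members by family, with those that passed marked. The 8 members that passed run from -0.87 (Gstt2) to 1.16 (Mgst1), and the larger differences of Ugt2b37 and Ugt2b5 carry the widest errors.

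Between the sexes, 8 members passed, 3 higher and 5 lower in males, where 1.25% of all genes passed as higher and 0.618% as lower in males, 1.87% in all. The sex term rests on 2 male and 4 female arrays. Ugt2b37 was 31.5-fold higher in males (log2 difference male minus female 4.98 ± 0.73 SE, limma adjusted p = 0.0292), and because its female level differed by genotype this mean over both genotypes describes neither. Ugt2b38 was 7.02-fold higher in males (2.81 ± 0.15 SE, limma adjusted p = 5.00e-04) and Ugt3a1 was higher by 0.69 ± 0.08 SE (limma adjusted p = 0.0136). Lower in males were Gsta4 (-1.66 ± 0.09 SE, limma adjusted p = 5.95e-04), Ugt2b34 (-1.40 ± 0.23 SE, 0.0408), Mgst1 (-0.94 ± 0.11 SE, 0.0149), Gsta3 (-0.85 ± 0.14 SE, 0.0418) and Gstt3 (-0.52 ± 0.08 SE, 0.0391). Gsta4 and Ugt2b38 passed under each of 11 alternative settings, while the other 6 were lost under 3 to 6 of them. None of the 11 settings left out a male array, so how far the sex calls rest on either male was not tested. No Sult gene passed for sex with limma, and 3 of 21 had an unadjusted p below 0.05, near the 16.1% of all genes at that level.

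The sex and genotype differences come from the same 6 arrays and are given side by side without a test of their relation. For the members higher in Pax28 dKO kidneys, the log2 difference male minus female was -0.43 for Gstt1 and -0.68 for Sult1a1, beside those of Gsta3, Gsta4 and Mgst1 above. For the lower members it was 0.22 for Gstt2 and 0.46 for Ugt3a2, beside that of Ugt3a1. Sex differences did not pass for Gstt1, Gstt2, Ugt3a2 and Sult1a1 (limma adjusted p = 0.0815, 0.295, 0.0600 and 0.278).

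**Figure D4:**
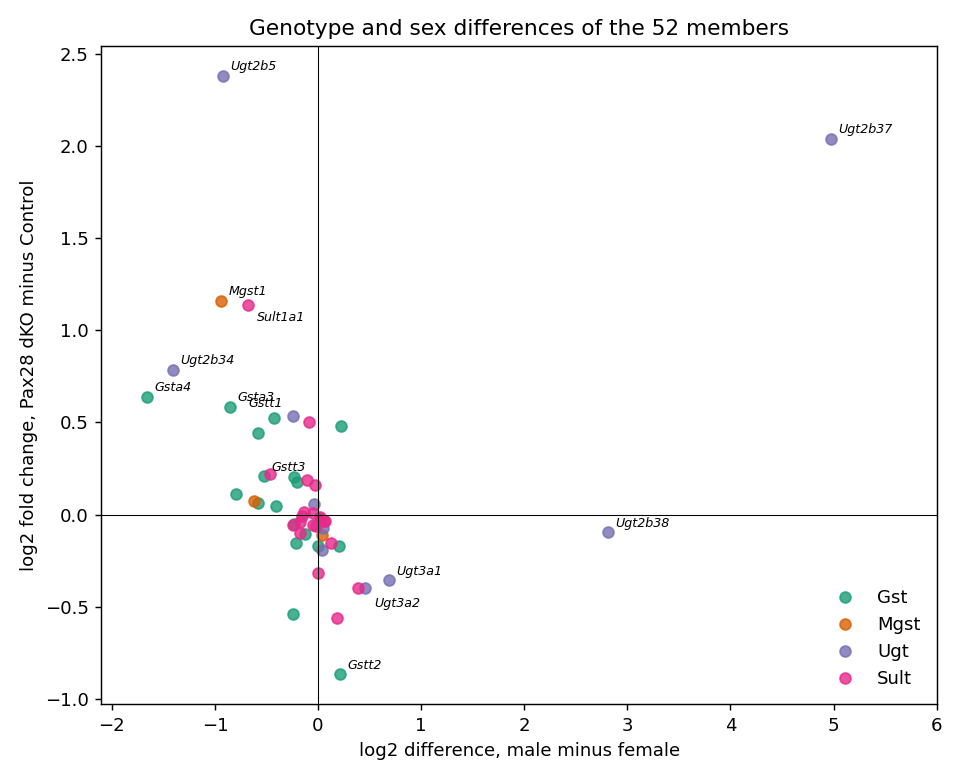
Each of the 52 members by its log2 difference male minus female (horizontal) and its log2 fold change Pax28 dKO minus Control (vertical), coloured by family. Ugt2b37 stands alone at 4.98 and 2.04, Ugt2b38 lies at 2.81 and -0.10, and both axes are fitted on the same 6 arrays.

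The genes that supply and regulate these enzymes were taken as 6 lists with 73 measured genes, of which 2 were higher and 9 lower in Pax28 dKO kidneys. Among all genes 4.12% passed as higher and 3.08% as lower, 7.2% in all, and the lists were not tested as sets. In the list for glutathione synthesis and recycling 3 of 16 were lower and none was higher, with a median log2 fold change of -0.08. Glutathione synthetase, Gss, was at 8.86, 8.32 and 8.41 on the Pax28 dKO arrays, against 9.45 on the male Control array and 8.99 on both female ones, below every control. Its log2 fold change was -0.61 ± 0.08 SE (limma adjusted p = 0.0095). Dpep1, the brush border dipeptidase that splits the cysteinylglycine of glutathione conjugates, differed by -0.58 ± 0.12 SE, and Ggct, which cyclises gamma-glutamyl groups, by -0.91 ± 0.21 SE (limma adjusted p = 0.0362 and 0.0475). These last calls were lost whichever single array was left out, and that of Gss without Control replicate 2 (adjusted p = 0.0506) and without a sex term.

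In the UDP-glucuronate list 1 of 6 genes was lower and none higher (median -0.03). It was Slc35d1, which carries UDP-glucuronate into the endoplasmic reticulum (-0.42 ± 0.09 SE, limma adjusted p = 0.0391), and it was lost whichever single array was left out. Ugdh, which makes UDP-glucuronate, differed by -0.33 and Ugp2, which makes UDP-glucose, by 0.27, and neither passed (limma adjusted p = 0.0634 and 0.0880). In the list for PAPS and sulfate 1 of 11 was lower and none higher (median -0.10). Bpnt1, which breaks down the spent sulfate donor, was at 8.66, 8.49 and 8.43 on the Pax28 dKO arrays, against 9.09 on the male Control array and 9.24 and 9.07 on the female ones (-0.60 ± 0.10 SE, limma adjusted p = 0.0186). It was lost without any 1 of the 4 female arrays.

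Of 17 known Nrf2 targets that are not members, 1 was higher and none lower (median -0.01). It was Pgd, an enzyme of the pentose phosphate pathway (0.37 ± 0.08 SE, limma adjusted p = 0.0440), lost whichever single array was left out, and Hmox1 differed by 0.79 ± 0.21 SE (limma adjusted p = 0.0768). Of 11 other conjugating enzymes 3 were lower and none higher (median -0.20). Nat8, which acetylates cysteine conjugates in the last step to mercapturic acids, was at 7.55, 5.66 and 5.48 on Pax28 dKO replicates 1, 3 and 5, against 8.13 on the male Control array and 6.39 and 6.28 on the female ones. It was lower within each sex (-0.70 ± 0.09 SE, limma adjusted p = 0.0108), and was lost without either female control (adjusted p up to 0.0529). Glyat, which conjugates glycine, differed by -0.75 ± 0.10 SE and Tpmt, which methylates thiopurines, by -0.49 ± 0.10 SE (limma adjusted p = 0.0121 and 0.0397). Glyat was lost without 1 of 3 arrays and Tpmt without 1 of 4, the female controls among them, with adjusted p up to 0.0612 and 0.141.

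Of 15 transcription regulators of these enzymes 1 was higher and 1 lower (median -0.02). Esr1, the estrogen receptor alpha, was at 7.16, 6.54 and 6.89 on the Pax28 dKO arrays, against 6.31 on the male Control array and 5.06 and 5.51 on the female ones. It was above every control (1.24 ± 0.18 SE, limma adjusted p = 0.0148), and of the 6 arrays left out in turn its call was lost without Control replicate 6 (adjusted p = 0.0578). It was also lost without a sex term and with every row of the table tested. Nr1i2, the xenobiotic receptor PXR, differed by -0.66 ± 0.12 SE (limma adjusted p = 0.0292) and was lost without any 1 of the 4 female arrays.

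**Figure D5:**
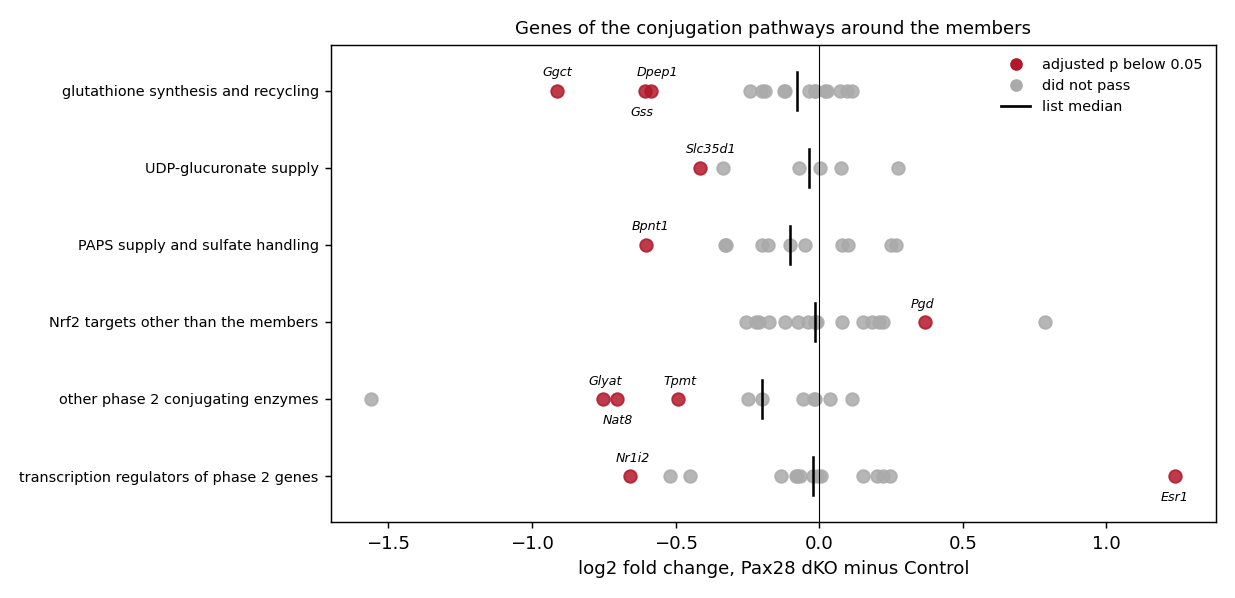
Log2 fold change, Pax28 dKO minus Control, of the 73 genes in the 6 lists, with the list median as a vertical bar and genes that passed in red. The lower genes that passed run from -0.91 (Ggct) to -0.42 (Slc35d1), and the list medians lie between -0.20 and -0.01.

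Markers of some cell types moved with the groups, while none of 6 thick ascending limb, 6 adrenal cortex and 5 urothelium markers passed. All 6 adrenal cortex markers were dim. The summed level of 12 markers of the first and middle proximal tubule segments was 13.72 to 14.21 on the Pax28 dKO arrays and 14.42 to 14.48 on the Control arrays, and 5 of the 12 were lower and none was higher. The largest difference was that of the phosphate transporter gene Slc34a3, at 4.90, 3.67 and 4.01 on the Pax28 dKO arrays, against 7.13 to 7.79 on the Control arrays. The list median was -0.49, and 2 of the 12, Slc13a3 (0.25) and Slc22a6 (0.09), had positive differences that did not pass. The summed level of 8 markers of the last segment was 11.48 to 13.24 in Pax28 dKO and 12.77 to 13.51 in Control kidneys, with 3 lower and 1 higher. Of 7 markers of collecting duct principal cells 5 were lower and none higher (median -1.10), with summed levels of 10.45 to 10.69 in Pax28 dKO and 11.13 to 11.54 in Control kidneys. The largest differences were those of Fxyd4 (-2.19 ± 0.08 SE) and Hsd11b2 (-2.04 ± 0.12 SE, limma adjusted p = 8.63e-04 and 0.00156). Scnn1b at 0.16 and Scnn1g at 0.04 did not pass. Of 6 markers of intercalated cells Slc4a1 (-2.58 ± 0.21 SE) and Aqp6 (-1.98 ± 0.17 SE) were lower and none was higher (limma adjusted p = 0.00283 and 0.00365). The others did not pass, with Slc26a4 at -0.30, Atp6v0d2 at -0.04, Atp6v1g3 at 0.04 and Foxi1 at 0.13, and the list median was -0.17. The summed levels of the 6 were 10.40 to 10.84 in Pax28 dKO and 10.65 to 11.15 in Control kidneys. Of 8 macrophage markers 7 were higher and none lower, with summed levels of 9.83 to 10.52 in Pax28 dKO and 8.86 to 9.06 in Control kidneys. Of 7 hepatocyte markers Apob and Ttr were higher and Apoa2 was lower, while Alb differed by 0.09 (limma adjusted p = 0.871), and the summed level was 12.29 to 12.73 in Pax28 dKO and 11.18 to 12.24 in Control kidneys.

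None of 6 adipose markers passed, with summed levels of 9.26 to 9.89 in Pax28 dKO and 8.86 to 10.49 in Control kidneys, but the brown fat gene Ucp1 was at 3.87 to 5.12 on the Pax28 dKO arrays, against 7.77 and 7.53 on the female Control arrays and 3.53 on the male one. With Control replicates 2 and 6 both left out, no gene of 22180 passed with limma, and at an unadjusted p below 0.05 there were 5 higher and 4 lower members of 52, where 5.66% of all genes were higher and 4.84% lower. The genotype difference then rests on the males, with 1 residual degree of freedom. Slc7a13, a marker of the last proximal tubule segment that is high in males, was at 4.63 and 3.95 on the female Pax28 dKO arrays, against 4.48 and 4.57 on the female Control arrays, and at 10.73 on the male Pax28 dKO array, against 10.93 on the male Control array. In whole kidney, fewer cells of a type and less RNA per cell cannot be told apart, and the part of these marker differences in the results was not tested.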

How the data were processed

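Total RNA of 6 kidney samples, 400 ng each, was hybridised to the Affymetrix Mouse Gene 2.1 ST platform, with 1 array per sample. The deposited values are log2 signals per transcript cluster, normalized by the authors with RMA, per the submitters' processing notes, which also name R 3.4.0 and limma. RMA sets the arrays to a common distribution, which can hide a shift of all genes. The genome build is not given in the sources used here. Of 41345 rows 23521 had 1 gene symbol, 1814 several and 16010 none. Where a gene had several clusters (1082 genes, no members) the one with the highest mean was kept, which left 22180 genes.

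Differences were fitted with limma 3.58.1 in R 4.3.3 (log2 signal on sex and genotype, 3 residual degrees of freedom, empirical Bayes, Benjamini-Hochberg over 22180 genes), and a further model added the interaction of sex and genotype. The script was tested on simulated data. The number of arrays limits the precision. Arrays correlated with each other at 0.979 to 0.995. Promoters come from RefSeq (GRCm38.p6). Named were all members that passed for genotype or sex, the 4 brightest of each family, the 3 smallest interaction p-values and the 4 largest differences that did not pass. Members and lists were chosen with earlier results of these data known. Alternatives were the sex term, females only, leaving out each array, other priors and weights, quantile normalization, median centring, a filter on dim genes, averaged clusters and testing every row.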

Additional observations from a re-analysis of the deposited data

Results flagged for a closer look

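Ugt2b37 stood out because its difference between Pax28 dKO and Control kidneys was unlike in males and females. The difference was -0.47 in the males and 3.29 in the females, and the limma test of the interaction gave an adjusted p of 0.0292 over 22180 genes. There was 1 male array per genotype, and the cause was not tested.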

How the results depend on the processing

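No genotype difference of a member changed sign where it passed, either with all 6 arrays or under the alternative. Among differences that did not pass, 18 members changed sign under at least 1 of the other alternatives, all with a log2 fold change within 0.11 of 0, and 16 did so with Control replicates 2 and 6 left out, where the fit is by construction the male difference. These include Ugt2b37 (-0.47, against 2.04 with all arrays), Ugt2b35 (-0.10, against 0.54) and Ugt2b5 (-0.01, against 2.38). The causes of the changes below were not tested unless stated. Counts are for Pax28 dKO against Control unless sex is named, higher before lower. Without a sex term, 304 and 167 genes passed, 0 and 1 members (Gst 0 and 1, Mgst 0, Ugt 0, Sult 0), and 0 and 1 genes of the pathway lists. With every row tested (41345 tests), 199 and 103 rows passed, of which 155 and 84 were the rows kept for a gene. Among these were 1 and 1 members (Gst 0 higher, Ugt 0, Sult 0) and 0 and 1 pathway genes. In the same setting 128 and 22 rows and 1 and 1 members passed for sex, and 0 rows and 0 members for the interaction. Median centring, under which the median log2 fold change of all genes was -0.08 (otherwise -0.01), gave 1194 lower genes, 2 lower Gst members and 1 higher pathway gene. Quantile normalization gave 3 higher members, 1 lower Ugt and 0 higher Sult genes, and 4 genes and 2 members for the interaction. A trended, robust prior gave 2 lower Gst and 0 higher Sult members, for sex 509 and 399 genes and 9 lower members, and 12 genes and 2 members for the interaction. Array weights gave 2 lower Gst members and, for sex, 70 lower genes and 2 lower members. Leaving out dim genes gave 2 lower Gst members and 316 genes lower in males. Females alone gave 1 and 2 Gst, 4 and 0 Ugt and 1 lower Sult members, and 1 higher pathway gene.

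Leaving out 1 array at a time gave 218 to 675 higher and 126 to 574 lower genes, 1 to 7 higher and 1 to 3 lower members (Gst 0 to 3 and 1 to 2, Mgst 1 higher, Ugt 0 to 4 and 0, Sult 0 to 1 and 0 to 1), and 0 to 1 higher and 0 to 8 lower pathway genes. For sex and for the interaction only female arrays were left out in turn. This gave, for sex, 106 to 133 higher and 23 to 38 lower genes, with 1 to 2 higher and 1 to 3 lower members. For the interaction it gave 0 to 4 genes and 0 to 1 members. Without either male the genotype fit equals that of the females by construction. An alternative chosen after seeing the data left out Control replicates 2 and 6 together: 0 genes, 0 members (Gst 0, Mgst 0, Ugt 0, Sult 0) and 0 pathway genes passed in either direction, 1256 and 1073 genes had an unadjusted p below 0.05, and Pax8 differed by 1.11 (limma adjusted p = 0.254). The alternatives for the interaction were also chosen after seeing the data. No paired analysis was possible because the Pax28 dKO and Control samples share no replicate numbers. Array signal near background limits what can be said of the 25 dim members.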

Other observations

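The 9 transcript clusters that carry several symbols, at least 1 of them a Gst, Ugt or Sult symbol, showed log2 fold changes, Pax28 dKO minus Control, between -0.56 and 0.24. None passed when every row was tested (limma adjusted p from 0.331 to 0.970), and no value from these clusters was assigned to a gene. Gstp1 and Gstp2, which share 1 of them, also had clusters of their own and were measured there.

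Several genes of the 6 lists around the members differed between the sexes in these arrays, where 1.87% of all genes passed for sex. Counted as higher and lower in males, they were 1 and 0 of 16 glutathione genes and 1 and 3 of 17 Nrf2 targets. Of 11 other conjugating enzymes 4 were higher and 0 lower. Cbr1, a carbonyl reductase, was lower in males by a log2 difference of -2.36 (limma adjusted p = 0.0015), at 8.05 in the male Pax28 dKO kidney and 7.96 in the male Control kidney. Abcc4, an efflux pump for conjugates, was also lower (-0.96, limma adjusted p = 0.0179), and so was Ephx1, the microsomal epoxide hydrolase (-0.59, limma adjusted p = 0.0437). Nat8 was higher in males by 1.89 (limma adjusted p = 0.0005) and Nat2, an arylamine acetyltransferase, by 1.10 (limma adjusted p = 0.0068). Also higher in males were Me1 by 0.78, Tpmt by 0.63 and Gss by 0.48 (limma adjusted p = 0.0119, 0.0475 and 0.0430). Inmt, which methylates indolethylamines, was higher in males by 2.42 (limma adjusted p = 0.0499), and its genotype difference of -1.56 did not pass (limma adjusted p = 0.0727).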
